A study of Mus musculus with 4 samples.

Results

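Kit, PDGF and HGF signaling each pair a receptor tyrosine kinase with a secreted or membrane-bound ligand, and the 10 genes of these pairs were taken by symbol from a table of 24771 features. They comprised the receptor Kit with its ligand Kitl, the receptors Pdgfra and Pdgfrb with the ligands Pdgfa, Pdgfb, Pdgfc and Pdgfd, and the receptor Met with its ligand Hgf. All 10 were found once each, and all 10 passed the minimum mean FPKM of 1 over the samples that was set for testing. Their levels were compared between salivary gland (SG) placodes derived from pluripotent stem cells (PSCs), collected at day 10, and submandibular glands (SMGs) of E12.5 mouse embryos, with 2 samples in each group.

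The SG placodes were whole aggregates grown from 129w2, a single line of mouse embryonic stem cells, seeded at 3000 cells per well and cultured from day 1 with 2% growth factor reduced Matrigel. The aggregates received BMP4 at 2 ng/ml on day 3, bFGF at 25 ng/ml together with retinoic acid (RA) at 1 μM on day 4. From day 6 the medium held 200 ng/ml of FGF10. No genotype, strain or agent is given for the SMGs, and neither their dissection nor the number of embryos per sample is described. Nothing states that the samples of a group came from separate cultures or litters, so p-values measure the spread between these samples, which may be technical. FPKM, the fragments of a gene per kilobase of transcript, scaled to the mapped total of a sample, is a level per length, so levels of different genes can be set side by side. Depth per sample is unknown from these values. Fold changes on the log2 scale are differences of log2(FPKM + 1), placodes minus SMGs, tested with limma over 13193 features with Benjamini-Hochberg adjustment, and a difference was called at an adjusted p below 0.05. They understate the change of genes with low FPKM, for which ratios of mean FPKM are also given.

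In embryonic organs these pathways link neighboring tissues. Kit, whose ligand is also called stem cell factor, is known from blood, germ and pigment cells and marks progenitor cells of the salivary epithelium. PDGF receptors are best known from mesenchymal and perivascular cells, which receive PDGF from epithelium or endothelium, with PDGFRα binding the A and C chains and PDGFRβ the B and D chains most strongly. HGF is made mainly by mesenchyme and acts on MET in epithelial cells, where it drives branching and migration.

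Kit was the only member higher in the placodes, and the other 9 were lower. Its level was 2.86 times that in the SMGs, while Pdgfra was 14.8 times lower and Hgf 30.2 times lower in the placodes. Over all tested features, 76.2% were called, 35.7% higher and 40.4% lower in the placodes. Differences of at least 2-fold on the log2 scale were called for 1 member higher and 8 lower, against 14.1% and 15.2% of all tested features. The median log2 fold change of the members was -1.73, and that of all tested features was -0.05. Pdgfb, Pdgfd and Hgf had placode means of 0.302, 0.385 and 0.0760 and passed the minimum only through the SMGs. Their direction was thus fixed, and they add no evidence to the number lower or to the median. The samples of the groups did not overlap for any of the 10 members, as for 88.4% of all tested features, 41.6% with the placodes higher and 46.8% with the placodes lower. Between the samples of a group, no member differed by more than 0.24 on the log2 scale. In RNA of whole aggregates and glands, fewer cells of a type and less RNA per cell cannot be told apart.

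**Figure D1:**
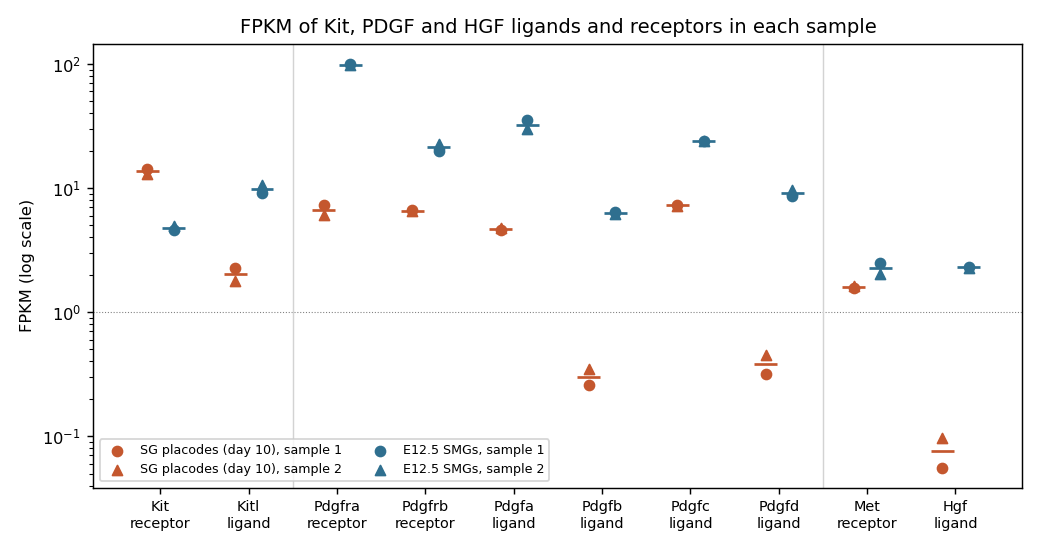
FPKM on a log axis of each ligand and receptor, with a point per sample and a line at the group mean, for SG placodes (red) and E12.5 SMGs (blue). Kit is the only gene with both placode samples above both SMG samples, and Pdgfb, Pdgfd and Hgf lie below an FPKM of 1 (dotted line) in the placodes.

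The groups differed in the cells whose markers they contained. All 10 mesenchyme markers were lower in the placodes, with summed FPKM of 225 to 231 against 2100.2 to 2139 in the SMGs. Of 10 oral and salivary epithelium markers, 8 were lower, and Krt5, Krt14 and Krt15 were listed at 0 in the placodes. The 10 markers summed to 59.1 to 64.8 against 613 to 642. Most of the placode sums came from Krt8 and Krt18, which did not pass the threshold. Krt8 was at 34.4 and 35.6 in the placodes versus 36.1 and 28.3 in the SMGs, and Krt18 at 20.8 and 24.5 versus 20.0 and 15.4. All 8 neural progenitor markers were higher, with sums of 723 to 756 against 45.9 to 51.4, as were all 8 neuronal markers. The part of these cell types in the differences below was not tested.

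The promoters of Kit and Pdgfra are shown because these neighbors on chromosome 5 moved in opposite directions. Each sequence starts 250 bases before a RefSeq transcription start on GRCm38.p6 and is written 5′ to 3′ on the plus strand, with the GC box (GGGCGG) and the TATA box (TATAAA) in capitals where found on either strand. The Kit sequence stops after 179 bases, where the first transcript annotated in GENCODE M21 begins.
Kit, chr5:75574737-75574915: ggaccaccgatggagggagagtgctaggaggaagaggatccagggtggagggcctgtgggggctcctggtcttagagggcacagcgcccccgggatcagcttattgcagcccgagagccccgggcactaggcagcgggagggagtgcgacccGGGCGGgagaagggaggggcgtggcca
Pdgfra, chr5:75152001-75152250: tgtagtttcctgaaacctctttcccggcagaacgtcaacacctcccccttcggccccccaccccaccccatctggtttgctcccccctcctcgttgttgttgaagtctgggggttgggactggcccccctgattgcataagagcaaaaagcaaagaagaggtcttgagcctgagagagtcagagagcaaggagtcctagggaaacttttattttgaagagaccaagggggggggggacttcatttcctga

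Over the whole 250 bases, the Kit window held 1 GC box and no TATA box, and 70.8% of its bases were G or C. The Pdgfra window held neither motif, had 54.4% G or C, and contained 1 E-box (CANNTG), which the Kit window lacked. The Kitl window, which lies mostly within the first exon of a longer GENCODE transcript and is not printed, held 3 GC boxes, of which a pair overlapped, and 1 TATA box. Of 32817 promoter windows of the same length, 32.7% held a GC box, 12.4% a TATA box and 66.2% an E-box. Among the windows used for 8 members, GC boxes were also found for Pdgfa and Met and a TATA box for Pdgfd. The letters AGGTCA, the core of elements bound by retinoid receptors, were in no window of these 8 members on either strand and in 14% of all windows. These matches are descriptions of the letters and say nothing of binding.

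Kit (ENSMUSG00000005672, chr5:75574916-75656722 on GRCm38) encodes a receptor tyrosine kinase of the PDGF receptor family. Its FPKM was 14.3 and 13.1 in the placodes versus 4.61 and 4.93 in the SMGs. Both placode samples were above both SMG samples, and Kit was the most abundant of the 10 genes in the placodes and the eighth in the SMGs. The log2 fold change was 1.34 (standard error 0.08, limma adjusted p = 1.98e-05). Markers of other cell types known for Kit were examined beside it. The neural progenitor and neuronal markers named above were also higher in the placodes. The part of any of these cells in the difference of Kit was not tested. The melanoblast markers Tyr, Tyrp1 and Mlana were listed at 0 in all samples, and the 6 markers of that list summed to 1.42 to 1.43 in the placodes and 2.78 to 3.38 in the SMGs, where Mitf and Pmel were at 1 or above in both samples. The 6 mast cell markers summed to 0.133 to 0.165 in the placodes and to 0.00249 and 0.524 in the SMGs, with Mcpt4, Tpsab1 and Fcer1a listed at 0 throughout. Of 9 markers of pluripotent and germ cells, 1 was higher in the placodes. This was Esrrb, an orphan nuclear receptor, at 19.95 and 19.6 against 0.0630 and 0.0628, while Pou5f1 was at 0.403 and 0.340 in the placodes and listed at 0 in the SMGs. The summed FPKM of this list was 21.6 to 22.6 in the placodes and 1.14 to 1.29 in the SMGs.

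Kitl (ENSMUSG00000019966, chr10:100015630-100100416) encodes the Kit ligand, which exists in membrane-bound and soluble forms that values per gene do not separate. Its FPKM was 2.27 and 1.78 in the placodes versus 9.08 and 10.6 in the SMGs. Both placode samples were low, with a mean 4.86 times below that of the SMGs. The log2 fold change was -1.84 (standard error 0.12, limma adjusted p = 2.90e-05).

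Receptor and ligand of the Kit pair thus differed in opposite directions between the groups. The log2 ratio of Kitl to Kit, each as FPKM + 1, was -2.22 and -2.34 in the placodes and 0.84 and 0.97 in the SMGs. The receptor exceeded the ligand in both placode samples, and the ligand exceeded the receptor in both SMG samples. The difference in this ratio, placodes minus SMGs, was -3.19 and had an exact permutation p of 0.333 (two-sided), which is the smallest that 2 samples against 2 allow.

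Pdgfra (ENSMUSG00000029231, chr5:75152292-75198215) encodes PDGFRα, the PDGF receptor of embryonic mesenchyme and of oligodendrocyte precursors. It had an FPKM of 7.26 and 6.02 in the placodes versus 99.6 and 97.3 in the SMGs. It was the most abundant member in the SMGs, and its log2 fold change was -3.71 (standard error 0.08, limma adjusted p = 4.39e-07). On that scale no member changed more, while Hgf, Pdgfd and Pdgfb exceeded it in the ratio of mean FPKM. Non-coding genes overlap its exons, and reads of these cannot be told apart where strand was not used. Of 7 markers of oligodendrocyte precursors, Olig2 was at 1.13 and 1.96 in the placodes and listed at 0 in the SMGs, and Sox10 was at 2.00 and 1.58 against 19.1 and 16.7. The summed FPKM of the 7 markers was 7.25 to 8.43 in the placodes and 23.4 to 25.3 in the SMGs.

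Pdgfrb (ENSMUSG00000024620), which encodes PDGFRβ, the receptor of pericytes and vascular smooth muscle, fell less. Its FPKM was 6.59 and 6.55 in the placodes versus 20.04 and 22.6 in the SMGs. Both placode samples were below both SMG samples by a ratio of means of 3.25, and the log2 fold change was -1.56 (standard error 0.08, limma adjusted p = 8.83e-06). Of 8 markers of pericytes and vascular smooth muscle, 4 were lower and 1, Notch3, was higher in the placodes. Their sums were 34.7 to 36.9 in the placodes and 61.1 to 63.0 in the SMGs. Notch3 supplied most of the placode sums, at 26.9 and 27.8 in the placodes versus 21.2 and 21.3 in the SMGs.

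The receptors also differed in their proportions, which do not depend on a linear scaling of the samples. Pdgfra made up 52.4% and 47.9% of the summed FPKM of both PDGF receptors in the placodes versus 83.2% and 81.1% in the SMGs. In the placodes the levels of Pdgfra and Pdgfrb overlapped between samples, whereas in the SMGs Pdgfra was above Pdgfrb in both. The share of Pdgfra was lower by 32.03 percentage points in the placodes (exact permutation p = 0.333, two-sided, the smallest possible).

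All 4 PDGF ligands were lower in the placodes. Pdgfa (ENSMUSG00000025856, chr5:138976014-138997370), which encodes the A chain, was at 4.61 and 4.77 in the placodes versus 35.2 and 29.7 in the SMGs. Its placode mean was 6.92 times lower (log2 fold change -2.55, standard error 0.09, limma adjusted p = 2.25e-06), and an antisense gene shares bases with its exons. Pdgfc (ENSMUSG00000028019, chr3:81036416-81214040) encodes a chain that must be cleaved outside the cell to act. It was at 7.36 and 7.18 in the placodes versus 24.0 and 23.7 in the SMGs. With a log2 fold change of -1.59 (standard error 0.06, limma adjusted p = 2.92e-06), it had the smallest fall of the 4 ligands, and it too shares exonic bases with an antisense gene.

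Pdgfb and Pdgfd, which encode the chains that bind PDGFRβ, were low in the placodes. Pdgfb (ENSMUSG00000000489, chr15:79995874-80014977), known as the signal by which endothelium recruits pericytes, was at 0.256 and 0.348 in the placodes versus 6.44 and 6.23 in the SMGs. Pdgfd (ENSMUSG00000032006, chr9:6168584-6378850) was at 0.317 and 0.453 in the placodes versus 8.61 and 9.59 in the SMGs. Mean FPKM was 21.0 times lower for Pdgfb and 23.6 times lower for Pdgfd in the placodes. Their log2 fold changes were -2.49 (standard error 0.11, limma adjusted p = 4.09e-06) and -2.87 (standard error 0.11, limma adjusted p = 3.05e-06). At a pseudocount of 0.001 in place of 1 these became -4.40 and -4.58. Both genes passed the minimum only through their level in the SMGs, which fixed their direction. Both were still called lower when no minimum was set, but that refits the same values with the same fold changes. It therefore cannot answer this limit. All 8 endothelial markers were lower in the placodes, against 40.4% of all tested features, with sums of 15.4 to 17.5 against 148 to 156. Pecam1, Tek, Emcn, Cldn5 and Erg had placode means below 1 and passed the minimum only through the SMGs. These could only be lower and add no evidence to the count. The part of endothelium was not tested. Of 6 megakaryocyte and platelet markers, 1 (Pf4) was called and was lower in the placodes, and Pf4, Gp9, Ppbp and Gp6 were listed at 0 there. Pf4 too could only be lower. The 6 markers summed to 0.780 to 0.839 in the placodes and 5.96 to 6.14 in the SMGs.

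The leading ligand differed between the groups. Pdgfc supplied 58.7% and 56.3% of the summed PDGF ligand FPKM in the placode samples, and Pdgfa 36.7% and 37.4%. In the SMG samples Pdgfa led with 47.4% and 42.9%, followed by Pdgfc with 32.3% and 34.3%. Pdgfb held 2.05% to 2.73% in the placodes and 8.68% to 8.99% in the SMGs, and Pdgfd 2.53% to 3.55% and 11.6% to 13.8%. None of the 4 shares overlapped between the groups, each with an exact permutation p of 0.333. Summed PDGF ligands fell from 74.2 and 69.3 FPKM in the SMG samples to 12.54 and 12.8 in the placode samples, and summed receptors from 119.6 and 119.9 to 13.9 and 12.6. The log2 ratio of ligands to receptors was -0.13 and 0.02 in the placodes and -0.68 and -0.78 in the SMGs. Receptors exceeded ligands in both SMG samples and in placode sample 1, and ligands exceeded receptors in placode sample 2.

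**Figure D2:**
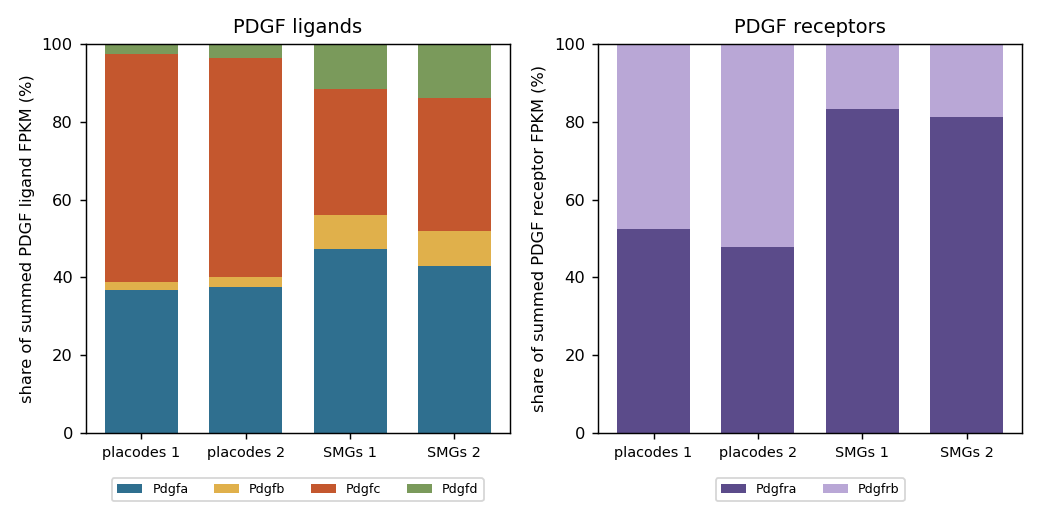
Share in percent of each gene in the summed FPKM of the PDGF ligands (left) and PDGF receptors (right), with a bar per sample. Pdgfc takes the largest ligand share in both placode samples and Pdgfa in both SMG samples, and Pdgfra takes 47.9% to 52.4% of the receptors in the placodes against 81.1% to 83.2% in the SMGs.

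Hgf (ENSMUSG00000028864, chr5:16553495-16620152), which encodes hepatocyte growth factor, was the least abundant member in the placodes. Its FPKM was 0.0558 and 0.0961 in the placodes versus 2.30 and 2.29 in the SMGs. The SMG values lay close together and the placode values were near the bottom of the scale, with means 30.2 times apart. The log2 fold change was -1.61 (standard error 0.11, limma adjusted p = 3.24e-05), and it was -4.95 at a pseudocount of 0.001. Hgf also passed the minimum only through the SMGs, which fixed its direction. It was still called lower without a minimum, but with the same values and fold change, which cannot answer this limit. A gene on the same strand, Gm43489, shares bases with its exons, so their reads cannot be told apart there even with strand.

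Met (ENSMUSG00000009376, chr6:17463800-17573980), the receptor of HGF, differed least of the 10 genes. It had an FPKM of 1.55 and 1.63 in the placodes versus 2.49 and 2.04 in the SMGs. The samples did not overlap, but the gap was small, and the log2 fold change was -0.33 (standard error 0.12, 95% interval -0.62 to -0.04, limma adjusted p = 0.0407). The call was lost when either placode sample was left out (limma adjusted p = 0.134 without placode sample 1 and 0.106 without placode sample 2) or SMG sample 1 was left out (0.101), and under 3 other scalings of the samples (0.0565 to 0.0578). In the SMGs the levels of Hgf and Met could not be ordered, since their samples overlapped, whereas in the placodes Met was above Hgf in both samples. The log2 ratio of Hgf to Met, each as FPKM + 1, was -1.27 and -1.26 in the placodes and -0.08 and 0.11 in the SMGs (exact permutation p = 0.333, two-sided, the smallest possible). The difference between the groups was -1.28, and it was -3.29 at a pseudocount of 0.1.

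**Figure D3:**
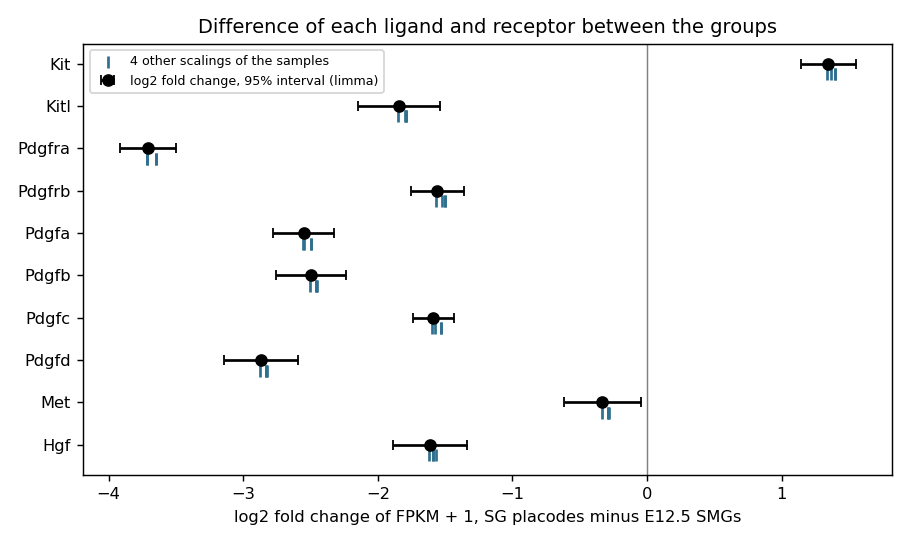
Log2 fold change of FPKM + 1 of each member, placodes minus SMGs, with its 95% interval from limma (black) and the values under 4 other scalings of the samples (blue ticks). Kit lies above 0 and the other genes below, and the interval of Met reaches from -0.62 to -0.04.

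Within the placodes the order of levels ran from Kit over Pdgfc, Pdgfra, Pdgfrb, Pdgfa, Kitl, Met, Pdgfd and Pdgfb to Hgf. The samples of Pdgfc and Pdgfra overlapped, as did those of Pdgfra and Pdgfrb and those of Pdgfd and Pdgfb. In the SMGs the order was Pdgfra, Pdgfa, Pdgfc, Pdgfrb, Kitl, Pdgfd, Pdgfb, Kit, Hgf and Met, with overlap between Kitl and Pdgfd and between Hgf and Met. All 10 members had an FPKM of at least 1 in both SMG samples, and 7 in both placode samples.

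Pdgfra and Kit are next to each other on chromosome 5 with Kdr, the main VEGF receptor of endothelium, with no other protein-coding gene between them in GENCODE M21. The start of Kit lies 422.6 kb and that of Kdr 826.2 kb from the start of Pdgfra. Kdr, at 0.643 and 0.672 in the placodes versus 20.04 and 20.8 in the SMGs, had a log2 fold change of -3.69 (limma adjusted p = 4.82e-07), close in size to that of Pdgfra. Kit, between them, was the only gene of the 3 that was higher in the placodes. Kdr passed the minimum only through the SMGs, so it could only be lower. Of the protein-coding genes on either side, Gsx2 was below 1 in every sample and not tested, and Srd5a3 was lower with a log2 fold change of -1.05 (limma adjusted p = 4.63e-04).

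**Figure D4:**
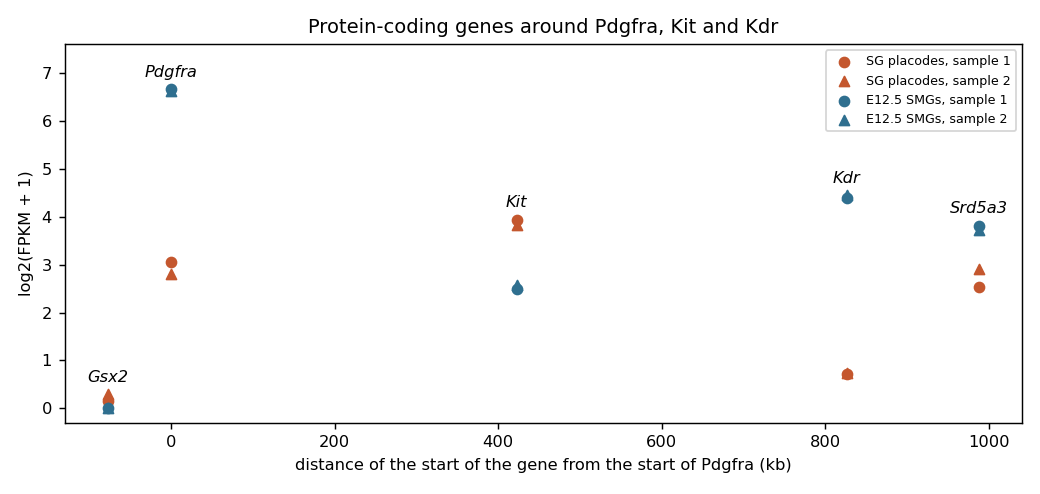
Level as log2(FPKM + 1) of the protein-coding genes around Pdgfra, Kit and Kdr against the distance of each start from that of Pdgfra in kb, with a point per sample. The placode samples (red) lie above the SMG samples (blue) at Kit and below them at Pdgfra, Kdr and Srd5a3.

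The genes whose log2(FPKM + 1) over the 4 samples lay nearest to each receptor by Euclidean distance were Tpmt (0.135) and Snx10 (0.136) for Kit, and Il11ra1 (0.429) and Zim1 (0.443) for Pdgfra. For Pdgfrb they were C1galt1 (0.222) and Ltbp4 (0.235), and for Met they were Naif1 (0.0808) and Wipf3 (0.108). With 4 samples in 2 groups, such a distance reflects little more than the group means.

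Of 13 listed relatives of the PDGF and Kit receptors and ligands, 10 were tested. In the placodes 3 were higher and 6 lower, against 35.7% and 40.4% of all tested features, with a median log2 fold change of -0.54. Kdr and Flt4, with placode means of 0.657 and 0.540, passed the minimum only through the SMGs. Vegfd, with an SMG mean of 0.271, passed only through the placodes. The direction of these genes was thus fixed and adds no evidence on the list. The VEGF genes are related to the PDGF genes in structure. Vegfa, the main growth factor of endothelium, had the highest fold change, at 88.5 and 91.0 against 24.6 and 23.1 (log2 fold change 1.87, limma adjusted p = 8.44e-07), and Kdr the lowest. Vegfb and Vegfd were also higher. Flt1, Flt4 and Vegfc were lower, as were Csf1r, the receptor of macrophages, and its ligand Csf1. Csf1r was at 1.68 and 1.99 in the placodes, where the 7 macrophage markers summed to 0.0705 to 0.0870, against 17.6 to 21.4 in the SMGs. Pgf did not pass the threshold (0.19, limma adjusted p = 0.244), and Flt3, Flt3l and Il34 were too low to be tested.

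Genes that activate HGF, hold its activation back or are related to it were lower. All 7 tested of 11 listed genes fell, 5 of them at least 2-fold, with a median log2 fold change of -2.05. Mst1r, St14, Hpn and Spint1 had placode means of 0.525, 0.946, 0.466 and 0.815 and passed the minimum only through the SMGs. Their mean FPKM could therefore only be lower in the placodes, and their fall adds no evidence on the list. Of all tested features 40.4% were lower and 15.2% at least 2-fold lower. The lowest was Spint2, a membrane-bound inhibitor of the proteases that activate HGF, at 7.37 and 7.08 in the placodes versus 55.3 and 47.9 in the SMGs (log2 fold change -2.67, limma adjusted p = 1.07e-06). The smallest fall and the highest level belonged to Plat, tissue plasminogen activator, at 25.5 and 25.6 against 45.6 and 41.4 (-0.74, limma adjusted p = 7.37e-05). Mst1r, which encodes the receptor RON and is the closest relative of Met, was at 0.500 and 0.551 against 3.13 and 2.60 (-1.34, limma adjusted p = 1.08e-04), and its ligand Mst1 was below 0.2 in all samples.

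Proteases that process the ligands were lower or did not pass the threshold. Of 7 tested among 8 listed genes, 6 fell and none rose, against 40.4% and 35.7% of all tested features, with a median of -0.83. Pcsk5, a proprotein convertase, was lowest, at 2.12 and 2.18 against 16.8 and 18.6 (log2 fold change -2.56, limma adjusted p = 1.73e-06). The most abundant, Adam10, was at 48.4 and 47.4 against 51.2 and 51.1 and did not pass the threshold (-0.09, 95% interval -0.20 to 0.02, limma adjusted p = 0.111).

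Co-receptors and extracellular partners were lower for 12 of 13 genes, 8 of them at least 2-fold, against 40.4% and 15.2% of all tested features, with a median of -1.09. Cspg4 and Itgb4 had placode means of 0.0906 and 0.245 and passed the minimum only through the SMGs. Their fall was thus fixed and adds no evidence on the list. Thbs1, which encodes the matrix protein thrombospondin, fell most, at 2.84 and 2.87 against 29.7 and 30.5 (log2 fold change -3.01, limma adjusted p = 4.45e-07). Plxnb1, which encodes a semaphorin receptor known to associate with MET, was the only gene of the list that rose, at 27.4 and 30.5 against 16.0 and 14.7 (0.87, limma adjusted p = 8.25e-05). Sparc, a matrix protein that binds PDGF, was the most abundant, at 126 and 110 against 217 and 205.

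Of the adaptors and kinases shared by the receptors, 38 of 39 listed genes were tested. In the placodes 17 were higher, 11 were lower and 10 did not pass the threshold, with a median of 0.07, while 35.7% of all tested features were higher and 40.4% lower. The share called was thus near that of all features. Lyn and Stat5a had placode means below 1 and passed the minimum only through the SMGs, so they could only be lower. Shc1, an adaptor that links receptors to Ras, fell most, at 10.8 and 9.71 against 52.4 and 55.2 (-2.28, limma adjusted p = 1.07e-06). Akt1 was the most abundant, at 115 and 110.0 against 145 and 142. Of 14 inhibitors of the receptors, 6 were higher and 6 lower, with a median of 0.16, again near the 35.7% and 40.4% of all tested features. The phosphatase gene Ptpn1 was highest (1.11, limma adjusted p = 1.17e-05), Cblc, a ubiquitin ligase gene of epithelia, lowest (-1.87, limma adjusted p = 3.01e-05) and Lrig1 most abundant, at 45.4 and 46.7 against 24.7 and 25.4. Cblc was at 0.165 and 0 in the placodes versus 2.85 and 3.02 in the SMGs. It and Ptpn6, with a placode mean of 0.925, passed the minimum only through the SMGs and could only be lower.

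Early target genes of receptor tyrosine kinases, which also respond to FGF and other signals, were mostly lower. Of 14 genes 10 were lower and 2 higher, against 40.4% and 35.7% of all tested features, with a median log2 fold change of -1.20. The 2 were Dusp4 and, chosen after its values were seen, Fosl1, and the count was 1 when placode sample 2 was left out. Fosl1, with an SMG mean of 0.763, passed the minimum only through the placodes and could only be higher. Fos was lowest, at 1.52 and 2.10 in the placodes versus 39.5 and 40.7 in the SMGs (log2 fold change -3.88, limma adjusted p = 8.81e-07). Dusp4, a phosphatase that inactivates MAP kinases, went the other way by more than any gene of these lists, at 121 and 119 against 6.03 and 4.33 (4.30, limma adjusted p = 9.47e-07). Jun was the most abundant, at 58.4 and 57.5 against 136 and 129.4.

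**Figure D5:**
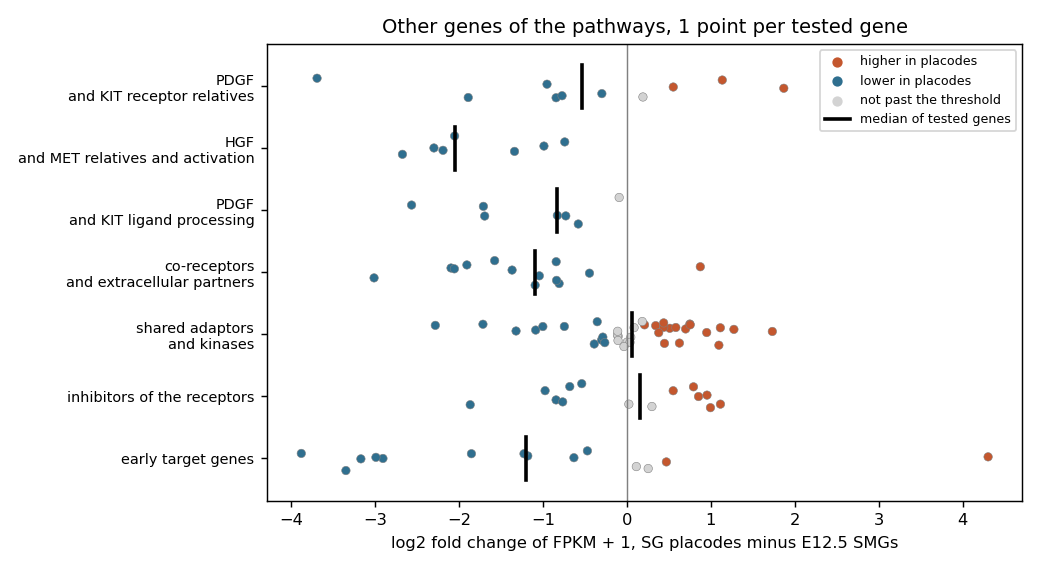
Log2 fold change of FPKM + 1, placodes minus SMGs, of the tested genes of 7 lists (1 point per gene, jittered vertically, with the median as a black bar), colored by the limma call. Activators and relatives of HGF and MET lie below 0, shared adaptors lie on both sides, and the point farthest to the right is Dusp4.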

How the data were processed

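Total RNA was sequenced from 2 samples of SG placodes and 2 of E12.5 SMGs, grouped by their labels. The authors mapped paired-end reads with HISAT2 (version not given in the sources used here) and deposited FPKM per gene and sample. The submitters' processing notes name GRCm38 and GRCh38 without a role, and the identifiers are mouse Ensembl genes. The program that computed FPKM, the annotation and the use of strand are not given in the sources used here. No steps of whole reads were found in low values, so no counting interval is given.

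FPKM was analysed as log2(FPKM + 1) with limma 3.58.1 in R 4.3.3 (lmFit, eBayes with trend, group as the only term, two-sided), over the 13193 features with a mean FPKM of at least 1. A gene with a mean FPKM below 1 in a group passed only through the other group, which fixed the direction of its difference. The design assumed this unit and was kept. Shares and ratios were tested by exact permutation. On simulated data, 143 of 200 genes changed 2-fold were recovered and 6 unchanged genes were called, in 13193 genes. The simulation changed far fewer genes than the 76.2% called in the data, and it shuffled the spreads over genes. Its rates therefore need not hold for the data. Coordinates and overlapping genes came from GENCODE M21 on GRCm38, and promoters from RefSeq on GRCm38.p6, with windows used for 8 of the 10 members. Pdgfb had no window, and Pdgfrb was left out before matches were counted, so the promoter results cover neither. Figures were drawn with Python 3.11.15.

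The members and gene lists were chosen with earlier results of these data known. Genes named from each list were those with the highest and lowest fold change and the highest mean FPKM, all relatives of the PDGF and Kit receptors, Mst1 and Mst1r, the 2 genes nearest to each receptor, and markers at 0 or highest in their list. One result under this rule is not reported here. Gsx2 and Srd5a3 were named for their position. After their values were seen, St14, Hpn and Spint1 were named for their low placode level, and Krt8 and Krt18 for their part in a sum. Alternatives were 2 pseudocounts, 2 filters, 4 scalings, a replicate block, eBayes without trend or robust, and each sample left out.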

Additional observations from a re-analysis of the deposited data

How the results depend on the processing

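Kit remained higher and Kitl, Pdgfra, Pdgfrb, Pdgfa, Pdgfb, Pdgfc, Pdgfd and Hgf remained lower past the threshold under every alternative in which they were tested. Met did not: its log2 fold change was -0.51 at a pseudocount of 0.001 (limma adjusted p = 0.0596), -0.33 without a minimum of FPKM (0.0704), -0.29 with an equal sum per sample and with median-ratio scaling, -0.28 with quantile normalization and -0.33 with the replicate number as a block (0.0589), and it ranged from -0.43 to -0.23 with each sample left out. The cause was not tested. With each sample left out, 8 to 9 members were lower and the early target genes that were higher numbered 1 to 2. Requiring a mean FPKM of 5, which leaves fewer genes to test, gave 5 members lower, 1 receptor relative lower, 2 HGF-related genes lower, 3 inhibitors lower and 1 early target higher. At a pseudocount of 0.1 the difference in log2 ratio was -3.73 for Kitl over Kit and -3.29 for Hgf over Met. Whether the replicate numbers mark a shared source is not given. Deviations of same-numbered samples had a correlation of -0.03, which cannot decide this, since a shared source need not shift the same genes in both groups. The block changed no other member's call. No scaling moved the median fold change of all genes by more than 0.06. Depth is unknown, so values such as those of Hgf in the placodes carry no detection limit.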

Other observations

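Among the early target genes, Dusp6, Etv4 and Etv5, widely used as readouts of FGF and ERK signaling, were looked at after their values had been seen. Dusp6 was at 5.46 and 5.96 FPKM in the placodes versus 48.3 and 50.2 in the SMGs (log2 fold change -2.91, limma adjusted p = 4.39e-07). Etv4 was at 2.04 and 1.88 versus 25.7 and 25.5 (-3.17, limma adjusted p = 5.42e-07), and Etv5 at 2.89 and 2.60 versus 28.6 and 28.8 (-2.99, limma adjusted p = 6.09e-07). In all 3, both placode samples lay below both SMG samples, whereas Dusp4 was higher in the placodes.

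Pdgfrl, which encodes a secreted protein resembling part of a PDGF receptor, was also chosen after its values were seen. Its FPKM was 1.02 and 0.494 in the placodes versus 4.27 and 3.42 in the SMGs (log2 fold change -1.47, standard error 0.18, limma adjusted p = 4.05e-04), with both placode samples below both SMG samples. With a placode mean of 0.758, it passed the minimum only through the SMGs and could only be lower.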
